A study of Homo sapiens with 6 samples.

Results

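The large subunit of the cytosolic ribosome carries the proteins named RPL and the acidic stalk proteins RPLP0, RPLP1 and RPLP2. Their mRNAs were chosen by symbol, as protein-coding genes named RPL with a number or RPLP0 to RPLP2, without pseudogenes. The rule gave 54 gene IDs with 53 symbols among 68201 counted genes, since RPL7A stands on a second ID, which had no reads. The remaining 53 genes lie on 19 chromosomes. The tested samples were extracellular vesicles (EV) shed into the medium by K562 cells labelled WT, in 3 replicates. The samples they were set against were whole cells (WC) of the same K562 cultures, also in 3 replicates. K562 is an established human line from a chronic myelogenous leukaemia, and no treatment or genotype differed between the groups. Poly-A RNA was copied into cDNA, amplified by PCR and read on nanopores, and the EV and WC libraries of a replicate shared a flow cell. EVs were recovered from conditioned medium by size exclusion, so co-purified particles are part of the EV samples.

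Ribosomal protein mRNAs are among the most strongly expressed in growing cells, and each ribosome takes a single copy of most of the proteins, with the stalk proteins RPLP1 and RPLP2 in several copies. Most of these mRNAs begin with a cytosine and an unbroken run of pyrimidines, the terminal oligopyrimidine (TOP) motif. Through this motif the mTOR pathway and the protein LARP1 hold the mRNAs out of translation or release them to it. Many members have large families of processed pseudogenes, copies of the spliced mRNA that returned to the genome, whose reads are hard to tell from those of the parent. Heterozygous loss of several members causes Diamond-Blackfan anaemia, a failure of the red cell lineage.

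The start of the mRNA was taken from the RefSeq promoter table (GRCh38.p14), which matched 43 of the 53 symbols. The windows below span 10 bases before and 20 bases from the start, on the strand of the gene, and capitals mark the longest run of 7 or more pyrimidines. They are shown for members towards both ends of the fold changes below, for the stalk, and for RPL41, which had the highest CPM in EVs. RPL12, at the base of the stalk, and RPL7L1, a nucleolar paralog of RPL7, have no such run. RPL10 has further annotated starts, whose windows have longest runs of 5 and 4 pyrimidines, and the window shown is that of its start with the motif.
RPL26, chr17:8383174-8383203, minus strand: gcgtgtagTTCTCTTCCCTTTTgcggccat
RPL22, chr1:6199576-6199605, minus strand: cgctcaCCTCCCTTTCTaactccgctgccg
RPL10, chrX:154398367-154398396, plus strand: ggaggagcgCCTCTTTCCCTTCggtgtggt
RPL36, chr19:5690285-5690314, plus strand: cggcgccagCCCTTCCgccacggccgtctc
RPL31, chr2:101002279-101002308, plus strand: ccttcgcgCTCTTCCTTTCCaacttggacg
RPL39, chrX:119791611-119791640, minus strand: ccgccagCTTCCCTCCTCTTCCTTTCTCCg
RPL41, chr12:56116623-56116652, plus strand: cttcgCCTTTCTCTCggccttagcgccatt
RPL12, chr9:127451387-127451416, minus strand: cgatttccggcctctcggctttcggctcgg
RPLP1, chr15:69452808-69452837, plus strand: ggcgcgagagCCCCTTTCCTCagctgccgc
RPLP2, chr11:809957-809986, plus strand: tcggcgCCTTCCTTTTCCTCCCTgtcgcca
RPLP0, chr12:120201092-120201121, minus strand: ggcgcgaggCCCTTCTCTCgccaggcgtcc
RPL4, chr15:66504836-66504865, minus strand: cgggagtggtaagcaCTTCCTTTTCCTgtg
RPL7L1, chr6:42879606-42879635, plus strand: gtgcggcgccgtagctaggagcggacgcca

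The RPL genes took 107089, 70363 and 73772 of 881338, 560157 and 580852 gene counts in the EV libraries. In the WC libraries they took 246622, 305644 and 253561 of 2480560, 3178211 and 2694992 gene counts. Intervals on such counts would cover counting error only, since PCR copies are not independent molecules. All 11 markers of K562 in the list used here, among them GATA1 and HBG1, had reads in both groups. Among the markers of other cell types, CD3D had 58 EV and 272 WC reads, EPCAM had 59 EV and 761 WC reads, and ALB, APOA1, MS4A1, CD79A, COL1A2 and KRT5 had none. EV replicate 1 stood apart within the EV group: of 49 tested RPL genes, 31 were lower and 15 higher in it than in both other EV libraries. How a read with several equal alignments was counted is not given in the sources used here, so the split of reads between a gene and its close copies is uncertain throughout.

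RPL mRNAs took a larger share of the reads in EVs than in cells. They made up 12.5% ± 0.286 of the gene counts in EV libraries and 9.66% ± 0.269 in WC libraries (SD, n = 3 each), and the values were 12.2%, 12.6% and 12.7% in EVs against 9.94%, 9.62% and 9.41% in WC. Of the counts of protein-coding genes they made up 26.0% ± 0.878 in EVs and 17.2% ± 0.703 in WC. The small-subunit (RPS) mRNAs took 9.22% ± 0.245 of the gene counts in EVs and 6.94% ± 0.290 in WC. The ratio of RPL to RPS counts was 1.36, 1.34 and 1.35 in EVs against 1.37, 1.39 and 1.41 in WC, so the 3 EV values lay just below the 3 WC values. In contrast, mRNAs of the mitochondrial large subunit (MRPL) took 0.244% ± 0.0179 in EVs and 0.292% ± 0.00884 in WC. These are shares of each library's reads. In bulk libraries, more vesicles that hold an mRNA and more of it per vesicle cannot be told apart.

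Gene by gene, the RPL mRNAs were higher in EVs almost without exception. Of the 49 RPL genes with enough reads to test, 48 rose in EVs at an adjusted p under 0.05 (edgeR quasi-likelihood test with TMM normalization, Benjamini-Hochberg over 8716 genes), against 22.8% of all genes tested. None fell, at an adjusted p or at an unadjusted p under 0.05 in edgeR or at an adjusted p in DESeq2, against 21.4% of all genes that fell in edgeR. DESeq2 called 44 genes that rose, without RPL30, RPL39L, RPLP0 and RPL4. In all 49 genes the 3 EV values in TMM-scaled CPM (read counts scaled to a common library size) lay above the 3 WC values, as in 24.9% of all genes tested. The median log2 fold change of the RPL genes, EV over WC, was 1.06, a 2.08-fold higher level, and 25 genes were at least 2-fold higher. The median was 1.05 for the RPS mRNAs, of which 30 of 31 rose, 0.39 for the MRPL mRNAs, of which 17 of 40 rose, and -0.13 over all genes tested. The study counts an RNA as enriched from a log2 fold change of 2 when its adjusted p is 0.01 or less, and 3 RPL genes passed this (RPL26, RPL23A and RPL22), against 4.53% of all genes.

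The size of these changes depends on the scaling. Under total-count scaling the median of all genes tested moved to -0.77 and that of the RPL genes to 0.41. Of the RPL genes, 30 still rose and none fell, against 12.4% of all genes that rose and 50.9% that fell. The 18 calls lost were those of RPL27, RPL30, RPL26L1, RPL19, RPL7, RPLP1, RPL15, RPL36AL, RPL3, RPL10A, RPL39L, RPL7A and RPL8, with log2 fold changes from 0.01 to 0.28, and of RPL6, RPL13, RPLP0, RPL4 and RPL5. RPL6 (-0.01), RPL13 (-0.02), RPLP0 (-0.13), RPL4 (-0.20), RPL5 (-0.22) and RPL7L1 (-0.40) then had log2 fold changes below 0 that did not pass the test. Of the MRPL mRNAs, 2 rose and 11 fell under total-count scaling, with a median of -0.24, so their balance of calls turned round. Below, fold changes are on the TMM scale, and changes within the RPL group are given in addition relative to the summed RPL count, which does not depend on other genes.

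**Figure D1:**
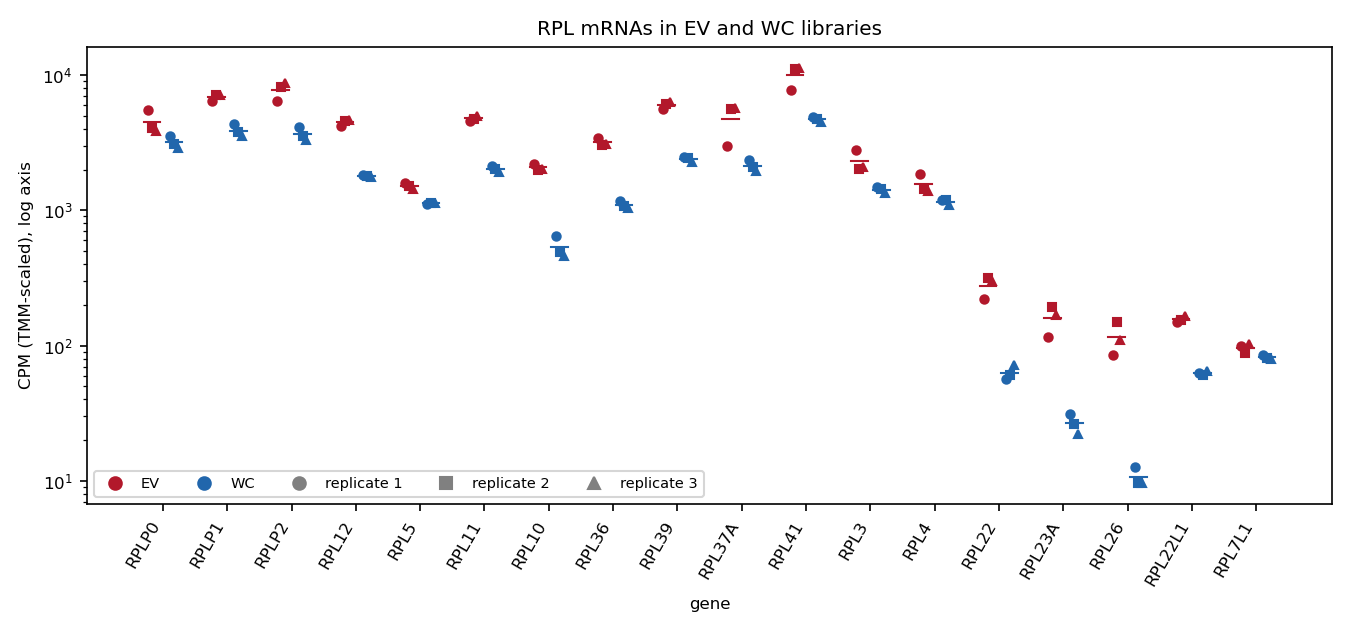
CPM of 18 RPL genes (log axis) in each library, EV in red left of WC in blue, with a marker shape per replicate and a bar at the group mean. Every EV point lies above the WC points of its gene, by most for RPL26, RPL23A and RPL22 and by least for RPL7L1, and EV replicate 1 (circles) is low for RPL37A and RPL41 and high for RPLP0, RPL3 and RPL4.

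All 4 listed genes of the stalk of the large subunit, which recruits elongation factors, rose. So did 48 of the 49 tested RPL genes, against 22.8% of all genes. Under total-count scaling RPL12 and RPLP2 rose, against 12.4% of all genes. RPL12, which lies at the base of the stalk, had 4185, 4570 and 4675 CPM in EVs, against 1808, 1803 and 1757 CPM in WC (a log2 fold change of 1.32 with an SE of 0.12, and an edgeR adjusted p of 1.89e-09). RPLP2 had 6390, 8155 and 8700 CPM in EVs, against 4146, 3530 and 3301 CPM in WC, a log2 fold change of 1.08 ± 0.13 (edgeR adjusted p = 1.88e-07). Its partner RPLP1 had 6438, 7110 and 7134 CPM in EVs, against 4308, 3770 and 3516 CPM in WC, a log2 fold change of 0.83 ± 0.12 (under total-count scaling 0.19, edgeR adjusted p = 0.0614). RPLP0, the anchor that holds both, had 5499, 4078 and 3840 CPM in EVs, against 3532, 3104 and 2877 CPM in WC, and EV replicate 1 stood well above the other two. Its log2 fold change was 0.50 ± 0.14 (edgeR adjusted p = 0.00422). Without WC replicate 2 or WC replicate 3 the call for RPLP0 was lost (adjusted p = 0.0539 and 0.0600), as it was in DESeq2 (adjusted p = 0.103) and in edgeR with no filter on low counts (adjusted p = 0.154). Without EV replicate 1 its log2 fold change was 0.29 (adjusted p = 0.0396).

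RPL5 and RPL11 bind the 5S rRNA together, and the free particle restrains MDM2, the ligase that degrades p53. Although the proteins are used in equal numbers, the mRNAs lay apart in their change. RPL11 had 4569, 4755 and 5009 CPM in EVs, against 2126, 2020 and 1932 CPM in WC (log2 fold change 1.24 ± 0.12, edgeR adjusted p = 5.07e-09). RPL5 had 1595, 1517 and 1436 CPM in EVs, against 1115, 1135 and 1139 CPM in WC (0.43 ± 0.13, edgeR adjusted p = 0.00782), and the call was lost without WC replicate 2 (adjusted p = 0.0722) and with no filter (adjusted p = 0.405). Relative to the summed RPL count, RPL11 rose by 0.22 ± 0.08 on the log2 scale (adjusted p = 0.0215) and RPL5 fell by 0.59 ± 0.11 (adjusted p = 0.000138). RPL11 did not pass that relative test without any one of EV replicates 2 and 3 or the 3 WC replicates.

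RPL10, RPL3 and RPL8 reach towards the peptidyl transferase centre, where amino acids are joined. RPL10, one of the last proteins to join the subunit, had the largest change among members with many reads. It had 2191, 1994 and 2030 CPM in EVs, against 645, 490 and 461 CPM in WC, a log2 fold change of 1.96 ± 0.14 (edgeR adjusted p = 4.45e-11). With its pseudogenes summed in, the log2 fold change of RPL10 was 1.70 ± 0.13, so the gene stood out in both forms. Of its annotated canonical transcript 53.7% overlaps exons of DNASE1L1 and of 1 further gene on the other strand. RPL3 had 2801, 2026 and 2089 CPM in EVs, against 1489, 1428 and 1338 CPM in WC (0.70 ± 0.14). RPL8 had 2540, 2454 and 2438 CPM in EVs, against 1705, 1583 and 1458 CPM in WC (0.65 ± 0.12).

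The mRNAs for proteins of the nascent-chain tunnel and of the rim around its exit, where chaperones and targeting factors dock, rose too. RPL39, a short tunnel protein, had 5623, 6090 and 6337 CPM in EVs, against 2496, 2450 and 2291 CPM in WC (log2 fold change 1.32 ± 0.12). RPL4, whose long loop lines the tunnel, had 1849, 1441 and 1390 CPM in EVs, against 1186, 1199 and 1088 CPM in WC, a log2 fold change of 0.43 ± 0.14 (edgeR adjusted p = 0.0116). For RPL4 the call was lost without EV replicate 1 (0.26, adjusted p = 0.0853), WC replicate 2 (adjusted p = 0.0694) or WC replicate 3 (adjusted p = 0.0917). It was also lost in DESeq2 (adjusted p = 0.113) and in edgeR with no filter (adjusted p = 0.377). All 6 listed members of the exit rim rose, as did 48 of the 49 tested RPL genes, against 22.8% of all genes. The log2 fold change was 1.36 for RPL31, 1.31 for RPL35 and 0.85 for RPL19. The other members of the rim were RPL26, RPL23A and RPL22, whose few gene reads are described below. Under total-count scaling 5 of the 6, without RPL19, rose, against 12.4% of all genes. RPL36, a small protein of the same subunit, had 3418, 3025 and 3114 CPM in EVs, against 1167, 1074 and 1046 CPM in WC (1.54 ± 0.13).

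Among the members with the most reads, RPL41, a peptide that bridges the subunits, had 7739, 11116 and 11298 CPM in EVs, against 4919, 4716 and 4490 CPM in WC (log2 fold change 1.09 ± 0.13). RPL37 had 4704, 7427 and 8077 CPM in EVs, against 3058, 2901 and 2758 CPM in WC (1.21 ± 0.15), and RPL32 had 6663, 5708 and 6123 CPM in EVs, against 2907, 2671 and 2586 CPM in WC (1.18 ± 0.12). For RPL41 and RPL37 the EV spread came mostly from replicate 1, which was the lowest of the EV libraries and still above every WC library. RPL13 was at the lower end, with 3377, 2489 and 2634 CPM in EVs, against 2044, 1735 and 1774 CPM in WC (0.62 ± 0.13). All 9 listed members with known Diamond-Blackfan mutations rose, as did 48 of the 49 tested RPL genes, against 22.8% of all genes. Their log2 fold changes ran across nearly the whole range, from 0.43 for RPL5 to 3.40 for RPL26. Under total-count scaling 6 of the 9 rose, against 30 of 49 RPL genes and 12.4% of all genes.

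Of 7 paralogs, 5 had enough reads to test and 4 of them rose, against 22.8% of all genes, but 1, RPL22L1, rose under total-count scaling. RPL22L1, the paralog of RPL22, had 150, 155 and 164 CPM in EVs, against 62.9, 61.0 and 64.6 CPM in WC (log2 fold change 1.31 ± 0.18, edgeR adjusted p = 1.06e-06). RPL26L1 (0.89 ± 0.23), RPL36AL (0.71 ± 0.16) and RPL39L (0.67 ± 0.21), the paralog of RPL39 known from testis, rose by less. Under total-count scaling RPL26L1 (0.25, edgeR adjusted p = 0.344), RPL36AL (0.07, adjusted p = 0.682) and RPL39L (0.04, adjusted p = 0.884) did not pass the test. For RPL39L the call was lost without WC replicate 2 (adjusted p = 0.0595) or WC replicate 3 (adjusted p = 0.0564), in DESeq2 (adjusted p = 0.0615) and with no filter (adjusted p = 0.185). RPL7L1 had 98.8, 87.9 and 103 CPM in EVs, against 84.8, 81.2 and 79.1 CPM in WC, and this did not pass the test (0.24 ± 0.18, edgeR adjusted p = 0.296). RPL3L, known from muscle, had 1 EV read and 12 WC reads, and RPL10L, known from testis, had 2 EV reads and 1 WC read, so that no difference was detectable at this depth.

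RPL26, RPL23A and RPL22 had the largest fold changes and rested on few reads. RPL26 had 62, 65 and 48 reads (85.0, 150 and 110 CPM) in EVs, against 37, 38 and 33 reads (12.7, 9.70 and 9.60 CPM) in WC, a log2 fold change of 3.40 ± 0.24 (edgeR adjusted p = 2.35e-11). RPL23A had 117, 194 and 169 CPM in EVs, against 31.3, 26.5 and 22.1 CPM in WC (2.56 ± 0.21, adjusted p = 4.47e-10). RPL22 had 219, 315 and 299 CPM in EVs, against 57.0, 60.8 and 71.3 CPM in WC (2.13 ± 0.18, adjusted p = 8.50e-10). The EV and WC values were far apart in each, but the gene counts of these members covered a small part of their transcripts.

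This is seen from the isoform table, in which reads of the same libraries were assigned to isoforms by another tool. Over the 50 RPL genes with an isoform, the mean normalized gene count was 1.40 times the summed normalized isoform count at the median. For RPL26 this ratio was 0.0313, for RPL23A 0.0306, for RPL30 0.0108 and for RPL22 0.144, and it was 0.00120 for RPL36A and 0.000166 for RPL17. RPL26 thus had a mean of 78.2 normalized reads as a gene and 2498 as isoforms, of which 84.1% were a productive isoform of 494 nt. Several of these genes share exons with other annotated genes in GENCODE v44. Of the canonical transcript, 65.3% is shared in RPL26, with a gene on the same strand, 96.9% in RPL17, with the readthrough RPL17-C18orf32, 43.8% in RPL36A, with the readthrough RPL36A-HNRNPH2, and 51.4% in RPL30, with RPL30-AS1 on the other strand. It is 17.2% in RPL23A and 11.2% in RPL22. Reads over several genes were left unassigned as ambiguous by the authors, and its part in the low counts was not tested. RPL38, with 59.0% shared on the other strand, had a ratio of 1.10. With RPL26, RPL23A, RPL22 and RPL30 left out, 44 of 45 genes rose and none was enriched, and the median log2 fold change was 0.95.

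When each gene was summed with the pseudogenes that carry its symbol, the large changes of these members were lost and the general rise was not. Of 51 families tested, 50 rose, against 21.2% of all features tested in that table, and RPL7L1 was again the exception (0.29 ± 0.18, adjusted p = 0.213). The log2 fold change of the family was 1.22 for RPL26, 1.32 for RPL23A and 1.33 for RPL22, close to the family median of 1.13, and none passed the enrichment threshold. RPL17 and RPL36A, with 1 and 11 reads as genes, could be tested as families and rose, with 1.20 and 1.71. Their families held 9493 and 3483 pseudogene reads, so these values are nearly all those of reads assigned to pseudogenes. The same holds for RPL26, RPL23A and RPL22, with 283, 514 and 1076 gene reads beside 28966, 18134 and 21880 pseudogene reads. RPL30 was at 0.90 as a gene and 1.50 as a family, and RPL36 at 1.54 and 1.60. As a gene RPL30 had 45 EV and 156 WC reads, and its call was lost without EV replicate 2 (0.71, edgeR adjusted p = 0.0988), in DESeq2 (adjusted p = 0.0818), with no filter (adjusted p = 0.116) and after WC reads were thinned to EV totals (adjusted p = 0.0564).

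**Figure D2:**
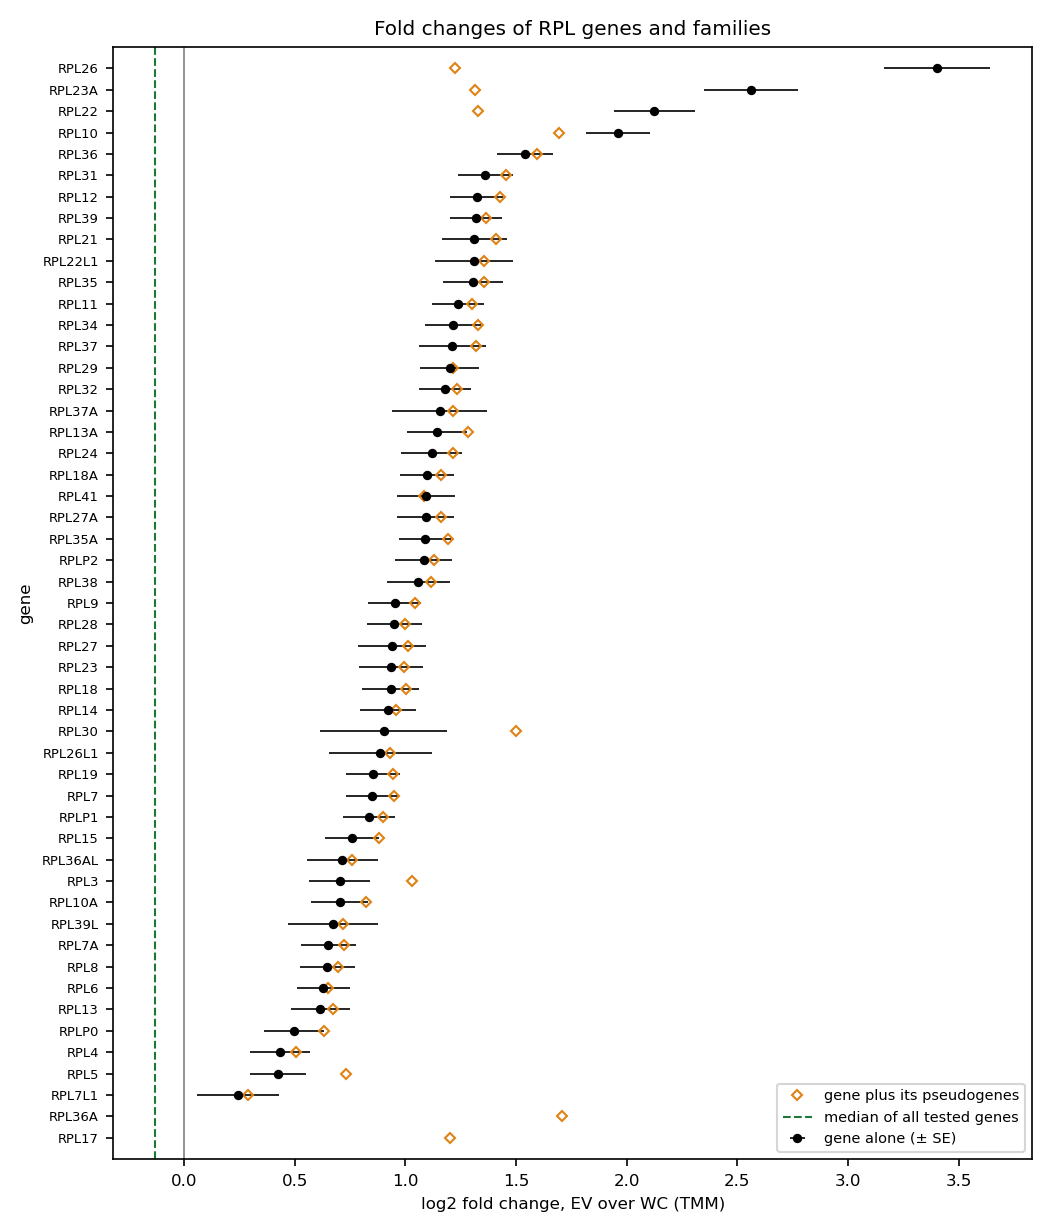
Log2 fold change, EV over WC, of each RPL gene alone (black, with its SE) and of the gene summed with its pseudogenes (orange diamonds), ordered by the gene's change. The dashed line marks the median of all genes tested (-0.13), and the diamonds of RPL26, RPL23A and RPL22 fall back among the other families while RPL10 and RPL36 stay at the upper end.

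Among genes with enough reads to test, the pseudogenes had a higher median change than the RPL genes. A gene could pass the expression filter through the EV group alone, so copies with reads mainly in EVs can be among those tested. In summed counts the pseudogenes took 14.1% ± 0.153 of the gene counts in EVs and 10.3% ± 0.310 in WC. Of 966 pseudogenes named after an RPL gene, 264 could be tested and 249 rose, against 22.8% of all genes, with a median log2 fold change of 1.58. Under total-count scaling 214 rose and 2 fell, with a median of 0.95, against 12.4% and 50.9% of all genes. In sum, the parents took 47.0% ± 0.785 of the parent and pseudogene counts in EVs and 48.3% ± 0.105 in WC, and the EV values of 46.1%, 47.4% and 47.4% lay below the 3 WC values. Among 44 RPL families with at least 100 counts in each library, the parent share was lower in every EV library than in every WC library in 19, against 31.2% of 218 such families of all genes. It was higher in 6, against 16.5%. The parent share of RPL3 was 64.0%, 60.9% and 59.1% in EVs, against 73.4%, 75.3% and 76.1% in WC. For RPL5 it was 60.9%, 54.2% and 54.9% in EVs, against 66.0%, 67.8% and 69.7% in WC. These families gained in EVs when the copies were included, with a log2 fold change of 1.03 for RPL3 and 0.73 for RPL5. Other families split almost evenly in both groups, as RPL14 with 50.6% ± 0.124 in EVs and 50.3% ± 0.0594 in WC, and RPL13 with 50.5% ± 0.105 in EVs and 51.0% ± 0.163 in WC.

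**Figure D3:**
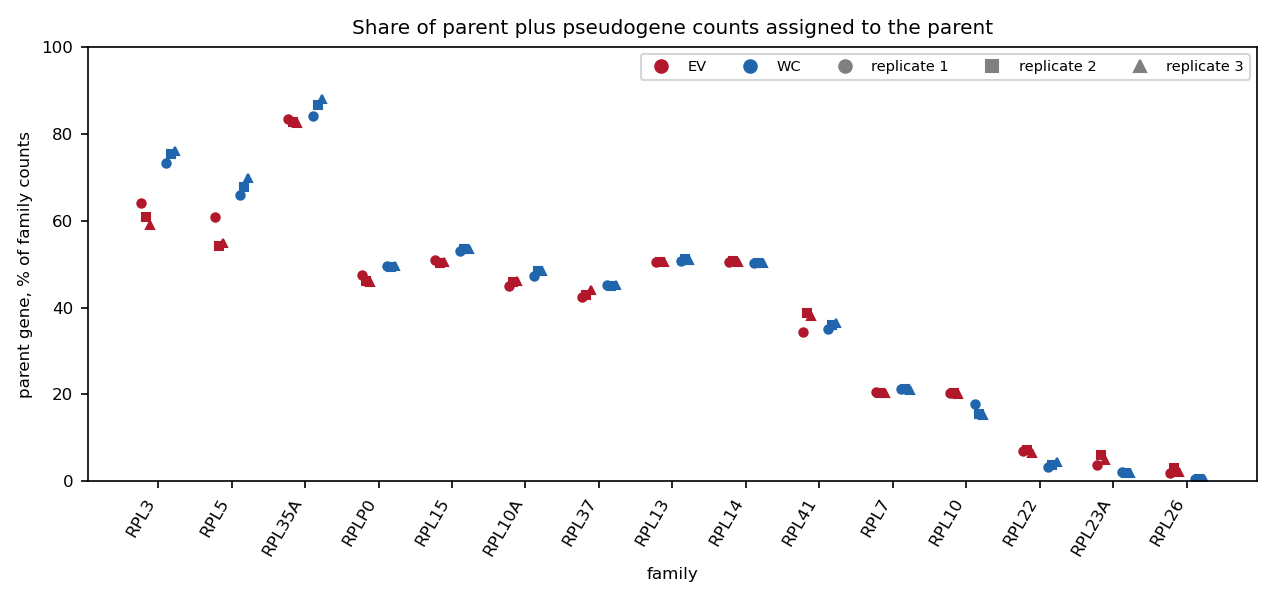
Percentage of the summed parent and pseudogene counts assigned to the parent gene in each library, for 15 families, EV in red left of WC in blue. RPL3 and RPL5 are lower in the 3 EV libraries, RPL22, RPL23A and RPL26 are at a few percent in both groups and higher in EVs, and RPL13 and RPL14 are near an even split in all libraries.

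Within the RPL group the mRNAs did not move by equal amounts. Relative to the summed RPL count, 11 genes rose (against 7.66% of all genes on this scale), 12 fell (against 66.5%) and 26 did not pass the test. RPL26 (2.39), RPL23A (1.55), RPL22 (1.10), RPL10 (0.96) and RPL36 (0.53) led the genes that rose, followed by RPL31, RPL12, RPL39, RPL35, RPL21 and RPL11 with 0.22 to 0.34. Of these, RPL26, RPL23A and RPL22 had few gene reads. Their family changes (1.22, 1.32 and 1.33 on the TMM scale) were close to the family median of 1.13. RPL7L1 (-0.76), RPL5 (-0.59), RPL4 (-0.57) and RPLP0 (-0.50) led the genes that fell, followed by RPL13, RPL6, RPL8, RPL7A, RPL10A, RPL36AL, RPL15 and RPLP1 with -0.38 to -0.18. Within the stalk, RPL12 therefore rose while RPLP0 and RPLP1 fell, and RPLP2 was at 0.06 ± 0.08. Without EV replicate 1, 18 genes rose and 15 fell on this scale: RPL41, RPL37, RPL37A, RPL38, RPL34, RPL27A and RPLP2 joined the genes that rose. RPL14, RPL19, RPL3 and RPL7 then joined the genes that fell, and RPL36AL no longer fell. RPL21 and RPL11 no longer rose, and RPL15, RPLP1 and RPL36AL no longer fell, without any one of the 5 other libraries. RPL13 no longer fell without any one of them except WC replicate 2, and RPL35 no longer rose without WC replicate 3. With the replicate as a block, RPL21 no longer rose, RPL36AL no longer fell, and RPL3 fell. In DESeq2 with the RPL total as size factor the same genes rose, but RPL13, RPL15 and RPLP1 no longer fell.

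The short mRNAs changed more than the long ones, in a part of the libraries. Without the 4 members with few gene reads, the 21 members with a coding length under 450 nt had a median log2 fold change of 1.09, the 9 of 450 to 600 nt 1.12 and the 15 over 600 nt 0.65. Relative to the RPL total, 10 of these 15 long members fell, close to the 66.5% of all genes that fell on this scale, and 1, RPL10, rose. Across the 45 members, coding length (log2) and log2 fold change had a Pearson's r of -0.43 and a Spearman's rho of -0.55, given as a description across genes of the same 6 libraries. Within each EV library, set against the WC mean, r was -0.03 in EV replicate 1, -0.54 in EV replicate 2 and -0.54 in EV replicate 3. RPL37A, with 276 nt, shows the difference: it had 2968 CPM in EV replicate 1 and 5606 and 5698 CPM in the others, against 2364, 2085 and 1955 CPM in WC. RPL3, with 1209 nt, went the other way within the EV group. WC replicate 1 set against the other WC libraries gave an r of -0.02.

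A relation with length was also present outside the group. Across 6759 tested protein-coding genes, r was -0.30 and rho -0.33. Other genes of the same coding lengths as the RPL genes had medians of 0.42 under 450 nt, 0.13 from 450 to 600 nt and -0.17 over 600 nt, so that the RPL medians lay above those of other genes in each class. The part of length or of RNA quality in the changes was not tested.

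**Figure D4:**
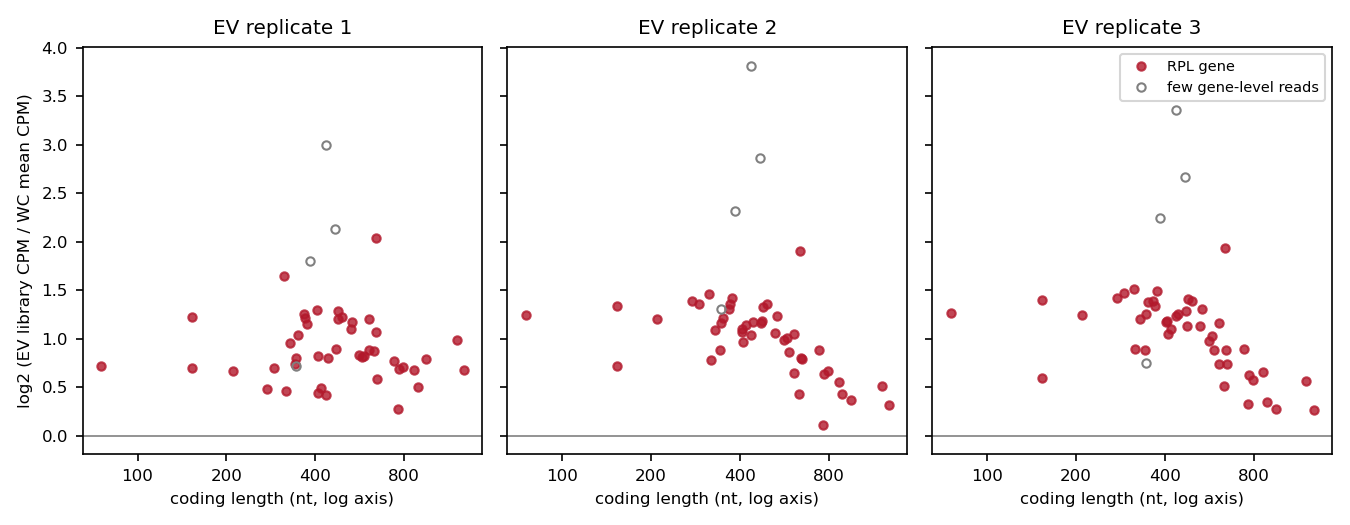
Log2 ratio of each EV library to the WC mean for 49 RPL genes against the coding length (nt, log axis), with the 4 members with few gene-level reads as open circles. Across the 45 members without those 4, Pearson's r was -0.54 in EV replicates 2 and 3 and -0.03 in EV replicate 1. In EV replicate 1 some short genes, as RPL37A (0.48), and some long genes, as RPL5 (0.50), both lie low.

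A pyrimidine start was shared by most members with an annotated start. The motif searched for was a start base C followed by 4 bases of C or T, on the gene's strand and at annotated starts alone. Some genes have several annotated starts, and a gene was counted if any of them had the motif. It was found in 29 of 43 RPL genes in the promoter table (67.4%), in 18 of 25 RPS genes (72.0%) and in 5.14% of all genes in the table. A run of 7 or more pyrimidines anywhere in the 30-base window of any annotated start was found in 35 RPL genes (81.4%) and in 23.0% of all genes. The 28 tested RPL genes with the start motif all rose, against 22.8% of all genes, with a median log2 fold change of 1.15. Of the 12 without it 11 rose, with a median of 0.74 and a highest value of 1.18. Relative to the RPL total, 10 of the 28 rose and 4 fell, and none of the 12 rose and 6 fell. Of all genes, 7.66% rose and 66.5% fell on this scale. Annotated starts can be off by a few bases, as in RPL4, whose pyrimidine run begins inside the window after the start. Among the 12, RPL10A, RPL15, RPL19, RPL27, RPL36AL and RPL9 also had a run of 10 to 13 pyrimidines in a window. The 28 include RPL26 and RPL22, which had few gene reads. These groups thus do not separate members with and without a pyrimidine run, and their difference was not tested. Of the RPL genes 19 hold a snoRNA gene within their bounds on the same strand. The 18 of these that were tested had a median of 1.09, and the 31 others had 0.95.

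Lists of genes that act with the large subunit or share its TOP motif had lower medians. Of 47 tested genes for the assembly of the large subunit, 15 rose and 3 fell, around a median of 0.36 on the log2 scale, against 22.8% of all genes that rose and 21.4% that fell. Under total-count scaling 7 rose and 16 fell, with a median of -0.29, against 12.4% and 50.9% of all genes. Among them SBDS, which helps to release EIF6 from new subunits, rose by 2.03 ± 0.25 on the log2 scale, and GNL3L, a nucleolar GTPase, fell by 1.34 ± 0.21. Of 18 other tested mRNAs with a known TOP motif, 15 rose and 1 fell, with a median of 0.56, against 22.8% and 21.4% of all genes. Under total-count scaling 8 rose and 4 fell, with a median of -0.09, against 12.4% and 50.9%. Although the median was lower, 4 of these 18 passed the study's enrichment threshold, against 3 of 49 RPL genes and 4.53% of all genes. TPT1, the translationally controlled tumour protein, rose by 2.80 ± 0.16, while EEF2, which drives translocation, fell by 0.60 ± 0.15. EEF1A1, the elongation factor that delivers tRNAs, turned with the scaling: its log2 fold change was 0.33 ± 0.12 with TMM (edgeR adjusted p = 0.0315) and -0.31 ± 0.12 under total-count scaling (adjusted p = 0.0316).

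Most RPL isoforms were predicted to be productive. The isoform table listed 345 isoforms for 50 RPL genes, of which 235 were predicted productive, 84 had a premature stop, 21 had no start codon and 5 had no stop codon. Weighted by their mean normalized counts, pooled by the authors over all 6 libraries, productive isoforms made up 94.3% and isoforms with a premature stop 4.71%. RPL19 had 30 isoforms, of which 24 had a premature stop, and these made up 44.4% of its isoform count. RPL12 had 35.9% with a premature stop, in 6 isoforms. RPL37 stood apart, since 97.5% of its isoform count fell on a single isoform of 1984 nt with a predicted premature stop, while its gene count was 5.85 times its isoform count. RPL6 (13.4 times) and RPL39 (9.48 times) also had far more gene counts than isoform counts. RPL36, RPL39, RPL39L, RPL36AL and RPL26L1 had 1 isoform each, all predicted productive. RPL7A, RPL3L and RPL10L had none under their IDs. The isoform values are pooled and were not compared between EVs and WC.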

How the data were processed

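The authors called bases with Guppy 6.2.1, removed short reads with NanoFilt, aligned the rest to GRCh38 (hg38) by spliced alignment in minimap2, and obtained gene counts with the long-read mode of featureCounts on GENCODE v41. The strand setting is not given in the sources used here. The gene counts were deposited by the authors without normalization. A deposited normalized signal per gene is the count after division by the library's DESeq2 size factor, and a deposited signal per isoform, from FLAIR, is the mean of such values over all libraries. Columns with the authors' fold changes and p-values were not used. The number of per-sample columns that matched no sample was 0.

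Gene tests used edgeR 4.0.16 in R 4.3.3 on the counts of EV (n = 3) against WC (n = 3): TMM, the expression filter with the group, a quasi-likelihood fit in robust mode, and Benjamini-Hochberg adjusted p-values over 8716 genes. CPM here use the TMM-scaled library size. The TMM factors were 0.765 to 0.839 in EV and 1.20 to 1.31 in WC libraries, and totals were 560157 to 881338 and 2480560 to 3178211 counts. The SE is the log2 fold change divided by the square root of F. A second fit used the summed RPL count as library size, and a further fit summed each gene with its pseudogenes by symbol (8454 features). Gene models came from GENCODE v44. In data simulated from these counts, the test found 14, 37, 50 and 50 of 50 genes changed by 0.5, 1, 2 and 3 on the log2 scale, and 0.127% of 8658 unchanged genes. The simulation set the same spread between replicates for every gene. It changed few genes, picked from those with many reads, in both directions, so its rates need not hold for the real data.

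The paper states that the EV and WC libraries of a replicate came from the same specimen and flow cell, so the numbers pair the samples. The correlations of same-number libraries after removal of group means were 0.062, 0.024 and 0.0044. The main fit used no block, since the study's methods do not name one. The methods describe biological triplicates for the EV purification and 5 flasks per replicate, and p-values measure the spread between these samples.

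Named genes were the 5 largest and 5 smallest log2 fold changes, the 6 highest mean CPM and all stalk, 5S particle and paralog members; RPL3, RPL8, RPL31, RPL35, RPL19, RPL30, RPL36A, RPL17, RPL37A and genes in lists were named in addition, after their values were seen. The members and lists were chosen with earlier results of these data known. Alternatives were RLE, total-count scaling, TMM from protein-coding genes, DESeq2 1.42.0, no filter, a mean of 5 reads, a replicate block, thinned WC libraries and leaving out each library. Leaving out the 4 members with few gene reads, defined by a gene to isoform ratio under 0.25 of the median, was added after seeing the data. Other software was pandas 2.3.3, scipy 1.17.1 and matplotlib 3.10.9.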

Additional observations from a re-analysis of the deposited data

How the results depend on the processing

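Of 330 alternative values of 22 named genes, 306 kept their direction and side of the threshold. Total-count scaling turned RPL6 (-0.013), RPL13 (-0.019), RPLP0 (-0.13), RPL4 (-0.20), RPL5 (-0.22) and RPL7L1 (-0.40) below 0, none of them past the test, brought the number of RPL genes that rose to 30 and of enriched genes to 1, and the median log2 fold change to 0.41. Without a filter on low counts the median was 0.73, and 5 calls were lost. DESeq2 lost 4 calls, and thinned WC libraries lost 1. The number of enriched genes was 0 with pseudogenes summed in and 0 without the 4 members with few gene reads. Of protein-coding counts, the RPL share was 26.0% in EVs and 17.2% in WC. Leaving out single libraries gave 44 to 48 genes that rose, 0 that fell, 3 enriched and a median of 0.91 to 1.09. It gave 50 families that rose, and 8 to 18 genes that rose and 8 to 15 that fell relative to the RPL total. The RPL share ranged over 12.4% to 12.6% in EVs and 9.51% to 9.78% in WC, and the parent share over 46.8% to 47.4% in EVs and 48.3% to 48.4% in WC. Paired by a replicate block, the fit gave 48 genes that rose, 0 that fell and a median of 1.04, 50 families that rose, and 10 genes that rose and 12 that fell relative to the RPL total, and it changed no other call of an RPL gene. Of the isoforms, 313 of 345 had a mean of at least 10. Depth limits RPL3L and RPL10L, which had 13 and 3 reads in all. RPL17 and RPL36A had 1 and 11 reads as genes, but 465 and 1153 mean normalized reads as isoforms. The causes of these shifts were not tested.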
